A study of Mus musculus with 200 samples.

Results

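The genes described here are the clustered histone genes, mostly replication-dependent, whose mouse symbols begin with Hist1h, Hist2h, Hist3h or Hist4h. Pseudogenes, with symbols ending in -ps, are counted with their class. The rule was the symbol alone, and it took 68 of the 22033 genes in the tables: 6 linker histone H1 genes, 18 H2A genes, 19 H2B genes, 12 H3 genes and 13 H4 genes. Of these, 54 lie on chromosome 13 in the large Hist1 cluster.

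The samples were whole mouse embryos of embryonic day 11.5, freed of extra-embryonic tissue and sequenced one by one with 3SEQ, an RNA-seq method that reads the 3′ ends of RNA bound to oligo(dT). Of the F1 embryos, 8 came from C57BL/6J (B6) mothers and Castaneus (Cast) fathers (B6xCast) and 8 from the reverse cross (CastxB6), so that all 16 carried 1 Cast and 1 B6 copy of each autosome. Of the 154 N2 embryos with genotypes, 89 had a B6 mother and an F1 father (B6xF1) and 65 had an F1 mother and a B6 father (F1xB6), and each was either Cast/B6 or B6/B6 at a given locus. The F1 parents of the backcross were themselves born to B6 mothers. No agent was given to any group, and nothing was deleted or added in the genome.

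Libraries held 15703888 to 38234229 reads on genes in F1 and 245220 to 5370322 in N2, where the 14 sequencing lanes A to N ran from a median of 577807 reads in lane J to 3340940 in lane F. Levels are given as RPM, the reads of a gene per 1000000 reads on genes. Markers of red blood cells and of neurons, 14 and 10 genes, all had reads in N2. The F1 and N2 libraries differed in barcoding, sequencing run and trimming, so that levels set across the generations are descriptions.

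Clustered histone genes supply the bulk of histone protein when DNA is copied. Their messages are the best known mRNAs of animal cells that end without a poly(A) tail: the 3′ end is made by a cut just past a conserved stem-loop, which the stem-loop binding protein Slbp holds with the U7 snRNP. A minority of their transcripts are made with a poly(A) tail instead, by reading on to an ordinary polyadenylation signal, and such forms are known in cells that have left the cell cycle.

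The stem-loop, a stem of 6 base pairs closed by a loop of 4 bases, was looked for in the 200 bases after the stop codon of each gene. In the mm9 genome with GENCODE models, 62 of the 68 genes had a model and 58 had it, 16 bases long, 21 to 58 bases past the stop codon (median 30). Sites of 26 bases are shown for 6 genes, 5′ to 3′, with the stem-loop in capitals. Hist3h2ba, Hist1h3c and Hist1h2ag had the highest levels, and Hist3h2a, Hist1h2bc and Hist1h4i varied in another way than most of the genes in the comparisons that follow.
Hist3h2ba: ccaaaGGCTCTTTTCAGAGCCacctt
Hist3h2a: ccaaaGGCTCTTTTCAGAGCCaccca
Hist1h3c: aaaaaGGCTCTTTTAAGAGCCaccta
Hist1h2ag: acaaaGGCTCTTTTCAGAGCCaccta
Hist1h2bc: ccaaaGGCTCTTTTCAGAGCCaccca
Hist1h4i: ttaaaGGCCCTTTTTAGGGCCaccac

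These sites lie past the stop codon, in mm9, at chr11:58762846-58762871 (+), chr11:58768669-58768694 (+), chr13:23836911-23836936 (-), chr13:22134347-22134372 (-), chr13:23776511-23776536 (+) and chr13:22132830-22132855 (-), in the order printed. The form in Hist3h2ba, with a TTTC loop, was the commonest of 8 and was shared by 35 of the 58 genes, while 9 had the TTTA form of Hist1h3c and 2 the form of Hist1h4i. The sequence of Hist3h2a and that of Hist1h2bc were the same over all 26 bases. Other genes had the same 26 bases too, among them Hist1h1e and Hist1h3b, so the likeness is not particular to this pair. The stem-loop lay within the window from 100 bases before to 50 bases past an annotated transcript end in 37 of the 62 modelled genes and in 1 of 21179 other genes (0.00472%). The poly(A) signal AATAAA, searched on the transcribed strand in the last 40 bases of the annotated transcript, was there in 10 of the 62 genes and in 53.6% of other genes, and AATAAA or ATTAAA in 15 genes against 65.9%.

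Levels ran over a wide range, and a few genes held most of the reads. Of the 68 genes, 21 had a mean of at least 5 RPM in N2, 23 lay between 1 and 5 RPM, 24 were below 1 RPM, and 8 had no read in any of the 154 embryos. Summed over the genes, the level was 709.3 ± 226.07 RPM (SD, n = 154). H2B genes gave 35.9% of it, H2A genes 28.2%, H3 genes 18.6%, H4 genes 11.6% and H1 genes 5.74%. By number, 7 of 18 H2A, 5 of 12 H3, 4 of 13 H4, 3 of 19 H2B and 2 of 6 H1 genes reached 5 RPM.

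Hist3h2ba, an H2B gene outside the large cluster, was the highest, with 190.5 ± 131.8 RPM (SD, n = 154) and 26.9% of the summed level on its own. The canonical H3 gene Hist1h3c followed with 71.5 ± 23.2 RPM and the H2A gene Hist1h2ag with 67.3 ± 21.8 RPM. Next came Hist1h2ai at 36.2 ± 14.9 RPM and Hist3h2a, the H2A gene beside Hist3h2ba, at 35.3 ± 23.8 RPM. All of these were read in every N2 embryo, Hist3h2a at 3.87 to 108.0 RPM and Hist1h3c at 30.5 to 191.5 RPM.

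Of intermediate level were the H3 gene Hist1h3h (26.6 ± 12.8 RPM), the H2A gene Hist1h2ae (25.9 ± 9.29), the H4 genes Hist1h4i (25.4 ± 25.3) and Hist1h4b (19.9 ± 9.96), the H2B genes Hist1h2bk (22.3 ± 9.75) and Hist1h2bc (21.2 ± 20.3) and the linker histone gene Hist1h1e (20.4 ± 19.6, all SD over 154 embryos). Hist1h4i, Hist1h2bc and Hist1h1e had SDs nearly as large as their means, and the differences between neighbours in this order were smaller than the SDs. The remaining genes of at least 5 RPM were the H1 gene Hist1h1c (11.1 RPM), the H4 genes Hist1h4d (10.8 RPM) and Hist1h4c (9.95 RPM), the H2A genes Hist1h2ak (10.8 RPM), Hist1h2ab (7.30 RPM) and Hist1h2ad (6.38 RPM), and the H3 genes Hist1h3a (10.1 RPM), Hist1h3i (6.52 RPM) and Hist1h3b (5.17 RPM). Just under 5 RPM lay Hist1h2bl (4.92 RPM), Hist1h3g (4.73 RPM) and Hist2h2be (4.70 RPM).

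**Figure D1:**
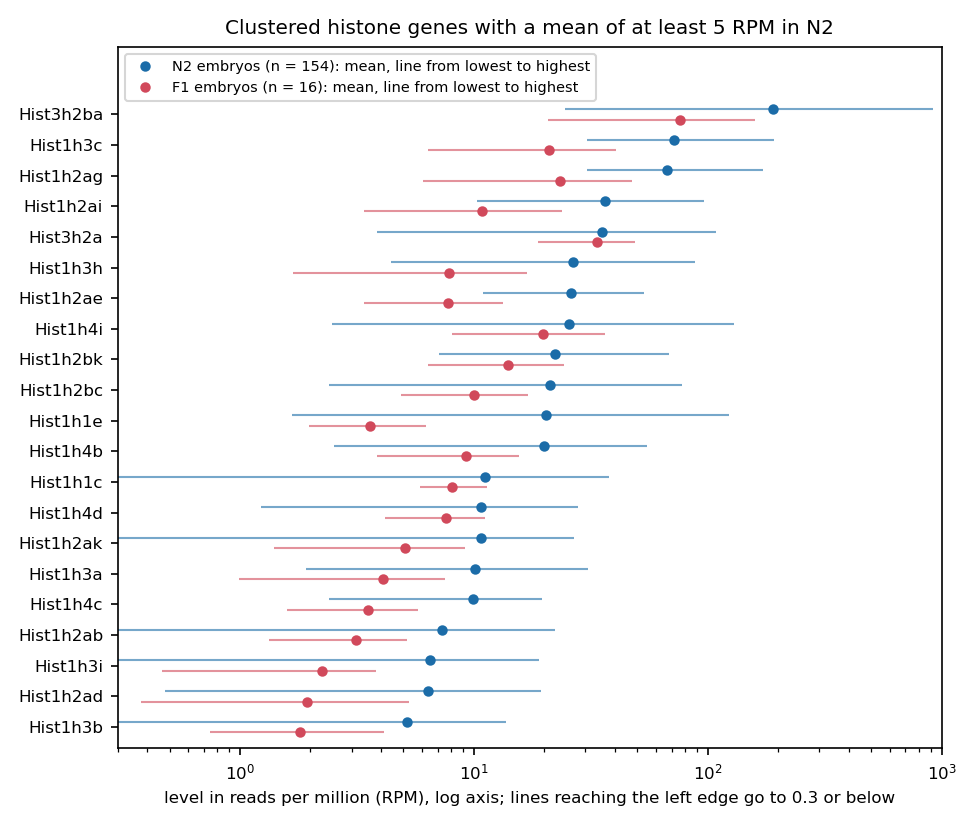
Mean levels of the 21 clustered histone genes of at least 5 RPM on a log axis in RPM, with lines from the lowest to the highest embryo, for 154 N2 and 16 F1 embryos. Every N2 mean lies to the right of the F1 mean, and the pair is closest for Hist3h2a (35.3 and 33.6 RPM).

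An annotated end past the stem-loop with a poly(A) signal was found for 7 of the 21 genes of at least 5 RPM: Hist3h2ba, Hist3h2a, Hist1h2ai, Hist1h4i, Hist1h2ae, Hist1h2bc and Hist1h1c. Along the genome, the annotated end lay 150 bases past the stem-loop in Hist1h4i, 151 in Hist1h2ae and 166 in Hist3h2ba. It lay 598 bases past it in Hist1h2ai, 839 in Hist1h1c and 1487 in Hist3h2a. In Hist1h2bc the distance was 7826 bases, most of it intron, since the whole annotated transcript is 736 bases long. In the other 14 genes the stem-loop lay in the window at the annotated end, and Hist1h3c and Hist1h3b, among these, were annotated 74 and 51 bases past it without a signal. The same kind of end was annotated for 2 of 22 modelled genes between 1 and 5 RPM and for 4 of 19 below 1 RPM. Genes annotated to end at the stem-loop, such as Hist1h2ag, were thus among the highest in this poly(A)-selected assay, and counts per gene do not show which transcripts carried a tail.

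Likeness between copies bears on these levels, since the authors discarded reads whose second-best alignment came within 3 edits of the best. Of the windows of the N2 read length along each gene of at least 5 RPM, a median of 59.2% matched another clustered histone gene with at most 3 mismatches. The share was 85.2% for Hist1h2ag and 83.2% for Hist1h3h, and 4.81% for Hist3h2a and 7.60% for Hist1h1c. These shares are over whole transcripts, while 3SEQ reads 3′ ends. Over the last windows of the transcript the share was 0% for Hist3h2ba, Hist1h3c and Hist1h2ai. It was 51% there for Hist1h2ag, 58% for Hist1h3h and 66% for Hist1h2bk. For 4 of the 62 modelled genes every window of the model was shared, among them Hist1h2bl, Hist1h2an and Hist1h4k. The models of Hist1h2bl, Hist1h4k and Hist1h2bk end before the stem-loop, and no stem-loop was found for Hist1h2an. Shares for such models leave out 3′ sequence past the annotated end, which reads may have covered. Levels of genes with high shares are therefore uncertain, also in their order.

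The same genes were lower in F1. The summed level was 315.0 ± 104.3 RPM (SD, n = 16) there, with a range of 159.7 to 514.9 RPM, and 306.4 to 1805.2 RPM in N2. The ratio of the N2 to the F1 mean had a median of 2.515 over the 21 genes, against 0.956 over 10007 genes of at least 5 RPM, and it was 2 or more for 16 of the 21 and for 11.4% of all genes. The 21 were kept by their N2 mean alone, and 7 of them, all with ratios over 2, had F1 means under 5 RPM, so that the minimum itself sets part of this count. With the average of the N2 and F1 means held to at least 5 RPM instead, 13 of 18 genes had a ratio of 2 or more, against 9.55% of all genes. Without lane J the count with the minimum on N2 was again 16 of 21, against 10.5% of all genes, and the median 2.39. Hist1h1e, one of the 7, had a ratio of 5.66, with 20.4 RPM in N2 and 3.60 ± 1.33 RPM in F1 (SD, n = 16). It was 3.42 for Hist1h3h, 3.40 for Hist1h3c and 3.34 for Hist1h2ae. Hist3h2a (1.05), Hist1h4i (1.28), Hist1h1c (1.38), Hist1h4d (1.42) and Hist1h2bk (1.59) lay below 2. Among genes of lower level, and chosen after its values were seen, the H4 gene Hist2h4 went the other way, with 1.24 RPM in N2 and 4.75 RPM in F1. Generation and library preparation cannot be told apart in these ratios.

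Within F1, levels differed between litters of the CastxB6 cross. Somite numbers, which count the blocks of body segments and so stage the embryo, were 58 to 63 in the older B6xCast litter (known for 2 of 3 embryos) and 48 to 50 in the younger (5 of 5), and 46 to 48 in the older CastxB6 litter (3 of 4) and 41 to 43 in the younger (3 of 4). The summed level was 159.7 to 202.1 RPM in the younger CastxB6 litter and 390.0 to 514.9 RPM in the older, and the 2 did not overlap. It was 238.8 to 401.4 and 280.0 to 365.1 RPM in the younger and older B6xCast litters, which overlapped.

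In CastxB6, 11 of the 14 clustered histone genes tested rose in the older litter and none fell (edgeR quasi-likelihood test, adjusted p under 0.05), where 35.8% of 9728 genes were called, 19.2% higher and 16.6% lower. The median log2 difference was 1.39 over the 14 genes and -0.02 over all genes tested. Core histone genes of all 4 kinds were among the 11. With the minimum set at 1 RPM, 29 of 39 genes rose and none fell, against 32.4% called of 13122 genes. At either setting the minimum was a mean over all 16 F1 embryos, the older CastxB6 litter among them. Some genes passed it only through their levels in that litter, so that the minimum itself sets part of these counts.

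Hist3h2ba had 20.7, 28.45, 30.2 and 26.4 RPM in the younger litter and 108.3, 76.3, 111.7 and 159.2 RPM in the older. Every embryo of the older litter was thus well above every embryo of the younger, and the log2 difference was 2.06 ± 0.23 (SE; edgeR adjusted p = 5.2e-05). The H3 gene Hist1h3h had 4.604, 2.81, 1.68 and 2.38 RPM against 11.8, 10.6, 12.4 and 16.9 RPM, a difference of 2.09 ± 0.35 (adjusted p = 0.00057). The H2A gene Hist1h2ai had 5.53, 4.26, 3.39 and 3.92 RPM against 16.2, 17.9, 17.5 and 23.9 RPM, a difference of 2.06 ± 0.27 (adjusted p = 0.00011). For each of these 3 genes the litters did not overlap. Here and below, the share of all genes whose litters did not overlap was not counted, so a lack of overlap is only described.

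Hist1h3c rose by 1.98 ± 0.33, Hist1h2ag by 1.85 ± 0.29, Hist1h2ak by 1.79 ± 0.30 and the H2B gene Hist1h2bk by 1.44 ± 0.23 on the log2 scale. The H4 genes Hist1h4b (1.34 ± 0.25) and Hist1h4d (0.94 ± 0.19) and the H2A gene Hist1h2ae (1.26 ± 0.26) rose less. Hist3h2a was called with a small difference of 0.36 ± 0.13 (edgeR adjusted p = 0.037), from 18.9, 28.45, 29.1 and 31.25 RPM to 36.6, 39.7, 31.6 and 36.8 RPM. It was not called with the minimum at 1 RPM (0.32, adjusted p = 0.071), with no minimum, or without CastxB6 replicate 1, 5, 6 or 8 (0.25 to 0.35, adjusted p from 0.058 to 0.094).

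The other 3 genes did not pass. Hist1h4i had 36.3, 19.9, 8.07 and 18.3 RPM in the younger litter and 13.9, 33.7, 17.7 and 11.2 RPM in the older, which overlapped throughout (log2 difference -0.23 ± 0.36). Hist1h2bc had 7.47 to 9.60 RPM against 8.61 to 14.2 RPM (0.15 ± 0.24), and Hist1h1c had 5.90 to 7.67 RPM against 7.29 to 10.2 RPM (0.31 ± 0.20). All 3, like Hist3h2a, have an annotated end with a signal past the stem-loop. Over the 7 tested genes with such an end the differences ran from -0.23 to 2.06 with a median of 0.36, and over the 7 without from 0.94 to 2.09 with a median of 1.79, and Hist3h2ba, Hist1h2ai and Hist1h2ae, of the first set, had values within the range of the second.

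In B6xCast the litters differed in 2 of the same 14 genes, both higher in the older, where 16.0% of all genes were called, 7.52% higher and 8.43% lower. Hist1h2bc had 15.9, 17.0 and 13.15 RPM in the older litter and 10.3, 5.10, 4.90, 9.98 and 6.02 RPM in the younger, without overlap (log2 difference 0.96 ± 0.24, edgeR adjusted p = 0.016). Hist3h2a had 48.7, 48.1 and 40.35 RPM against 29.5, 30.03, 34.1, 24.4 and 30.1 RPM, again without overlap (0.51 ± 0.13, adjusted p = 0.016). The other 12 lay between -0.69 and -0.02, Hist1h2bk lowest (-0.69 ± 0.24, adjusted p = 0.059). Without the second B6xCast embryo, of the older litter, neither of the 2 passed, and without the first 1 did. With the minimum at 1 RPM, 8 of 39 genes were called, 2 higher and 6 lower in the older litter, against 16.0% of 13122 genes. The lowest of these, named after its values were seen, was Hist2h4, with 2.43, 1.76 and 1.68 RPM in the older litter and 8.09, 5.27, 8.53, 7.84 and 8.30 RPM in the younger (-2.11, adjusted p = 0.00025).

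The older-minus-younger difference itself differed between the crosses for 10 of the 14 genes, against 25.4% of all genes (edgeR, adjusted p under 0.05). It was lower in B6xCast than in CastxB6 by 1.25 to 2.53 on the log2 scale. The somite ranges and their gaps were not the same in the 2 crosses, and the older CastxB6 litter was read on 2 HiSeq runs where the other 3 litters were read on the GAIIx and 1 HiSeq run, so that stage, cross and run cannot be told apart. Of 10 other RNAs that mostly lack a poly(A) tail, 2 were tested and 1 was called higher in the older CastxB6 litter. Their summed level was 5.25 to 7.07 RPM in the younger and 27.1 to 141.1 RPM in the older, a rise carried by Rmrp, the RNA of RNase MRP, at 0.314 to 1.97 and 20.65 to 134.5 RPM. Rpph1 had 3.39 to 4.42 and 4.97 to 5.61 RPM, without overlap, and Rnu11 had 0 to 0.463 and 0.063 to 0.451 RPM. Red blood cell markers summed to 99219 to 133717 RPM in the younger and 54191 to 67400 RPM in the older litter without overlap, with 3 of 12 higher and 4 lower. Cycling-cell markers went from 2017 to 2890 RPM in the younger to 2030 to 2775 RPM in the older litter, with 2 of 17 higher and 6 lower. Their part in the result was not tested.

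Other genes of histone supply were called in both directions in this contrast, where 35.8% of all genes were called. Of 12 genes of histone mRNA 3′ end processing tested in CastxB6, 1 rose and 2 fell, of 11 histone chaperone genes 3 rose and 1 fell, and of 9 replication-independent histone genes, which make ordinary polyadenylated messages, 1 rose and 1 fell. Their median log2 differences were -0.10, -0.07 and -0.01.

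**Figure D2:**
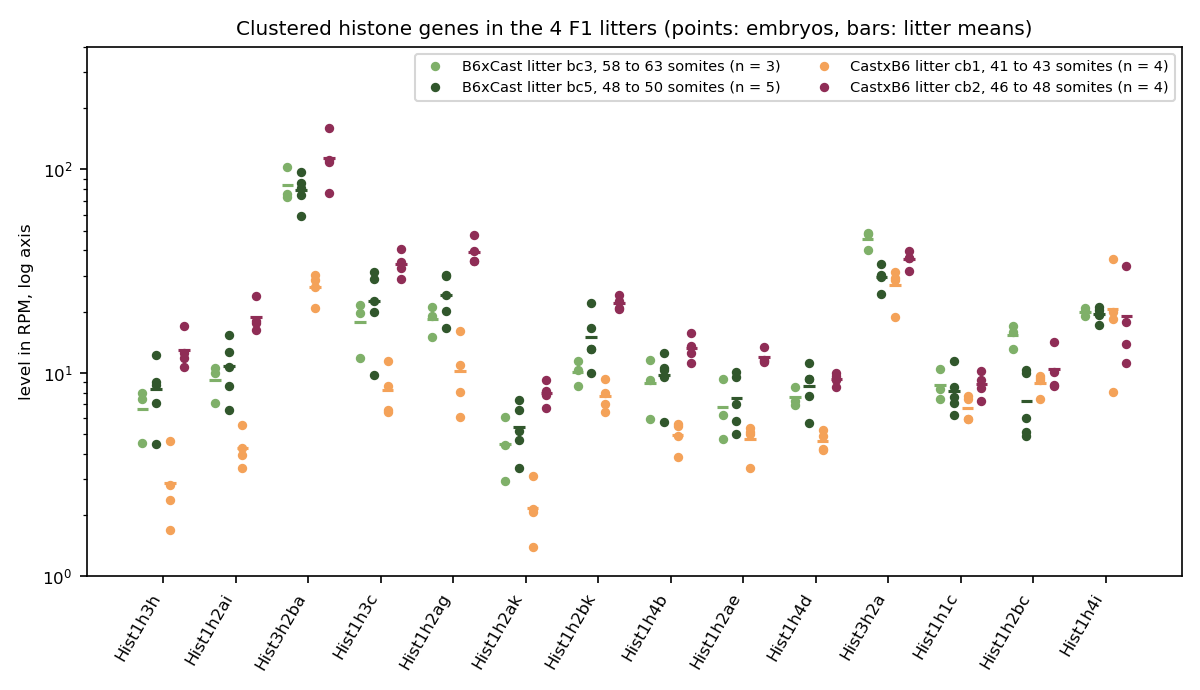
Levels of 14 clustered histone genes on a log axis in RPM in each F1 embryo (points) with litter means (bars), genes ordered by the CastxB6 difference. From Hist1h3h to Hist1h4d the 4 embryos of the younger CastxB6 litter lie below the 4 of the older, and for Hist1h1c, Hist1h2bc and Hist1h4i the litters overlap. The share of all genes without overlap was not counted.

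Between the 8 embryos of one cross and the 8 of the other, 0 of the 14 genes were called, where 29% of 9728 genes were called, 13.7% higher and 15.3% lower in B6xCast (edgeR). At an unadjusted p under 0.05 the edgeR count was also 0, against 41.7% of all genes, DESeq2 called 0, and the log2 differences, B6xCast minus CastxB6, lay between -0.22 and 0.21 with SEs of 0.14 to 0.42. Each cross holds the 2 litters described above. Between the litters nearest in stage, 48 to 50 against 46 to 48 somites, 1 gene was called, Hist1h2ag, which was lower in B6xCast by 0.67 on the log2 scale (adjusted p = 0.042), against 13.3% of all genes. Without the younger CastxB6 litter, a choice made after seeing the data, 4 genes were called lower in B6xCast, against 15% of all genes called, Hist1h2ai (-0.90), Hist1h2ag (-0.85), Hist1h2bk (-0.75) and Hist1h2ae (-0.73).

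In N2 the question was whether histone levels went with stage from 42 to 57 somites, in 147 embryos. Of the 21 genes, 2 did by Spearman's rank correlation with Benjamini-Hochberg adjustment, where 22% of 10007 genes did, 14.1% rising and 7.97% falling. Hist3h2ba rose with somite number (rho = 0.26, adjusted p = 0.013, n = 147) and Hist1h4i fell (rho = -0.26, adjusted p = 0.013, n = 147). The other 19 lay between -0.16 and 0.16, and the summed level of the 21 had a rho of 0.08. With lane regressed out of the ranks Hist3h2ba kept a rho of 0.30 (adjusted p = 0.0071) and Hist1h4i came to -0.05. Hist1h4i had a rho of -0.47 with B6 mothers (adjusted p = 8.6e-05), 0.02 with F1 mothers, -0.23 on flowcell 1, where it did not pass, and -0.395 on flowcell 2 (adjusted p = 0.0045). Hist3h2ba had a rho of 0.31 with B6 mothers, 0.34 with F1 mothers, 0.18 on flowcell 1, where it did not pass, and 0.36 on flowcell 2. With B6 mothers 8 of the 21 genes were called, against 51.6% of all genes, and with F1 mothers 5, against 23.1%. Hist3h2a had a rho of -0.27 under B6 mothers and 0.38 under F1 mothers, a difference that was not tested. With litter means no gene of the 21 passed. Of the 18 cycling-cell markers 6 fell with somite number and none rose.

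Levels also differed between sequencing lanes. Each lane held embryos of a few litters, and lane means of somite number ran from 45.2 to 51.6. Differences between lanes can thus also hold differences of litter, stage and mother. By the edgeR quasi-likelihood F test over the 14 lanes, 20 of the 21 genes differed, against 99.4% of all genes, so that the count says nothing particular to histone genes. The ratio of the highest to the lowest lane mean had a median of 2.42 over the 21 genes, below the 3.69 over all genes, and lanes held a median of 32.3% of the rank variance, against 59.7%. Between the genes these shares differed widely, from 15.5% for Hist1h4c and 16.9% for Hist1h2ae to 74.4% for Hist3h2a, 76.4% for Hist3h2ba and 80% for Hist1h4i.

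Hist1h4i had lane means of 48.0 to 67.02 RPM in lanes K, L, M and N and 6.57 to 20.5 RPM in the other 10 lanes. Hist1h2bc had 37.01 to 55.6 RPM in the first 4 and 5.88 to 25.3 RPM in the others, and Hist3h2a had 53.35 to 77.2 RPM and 14.7 to 35.3 RPM. For these 3 genes all of lanes K to N stood above all others, a pattern shared by 28.2% of all genes of at least 5 RPM. The H3 gene Hist1h3h had the opposite order, with 11.8 to 18.25 RPM in lanes K to N and 21.6 to 37.7 RPM elsewhere, as had 4.29% of all genes. Lane J was set apart by other genes: Hist3h2ba reached 565.0 ± 183.4 RPM there (SD, n = 11), against 65.2 to 245.2 RPM in the remaining lanes, and Hist1h1e 69.9 RPM. That lane also had the fewest reads, the highest summed level of RNAs that mostly lack a tail (27.25 RPM, where the lowest lane had 9.28 RPM) and of neuronal markers, and the part of these in the histone levels was not tested.

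**Figure D3:**
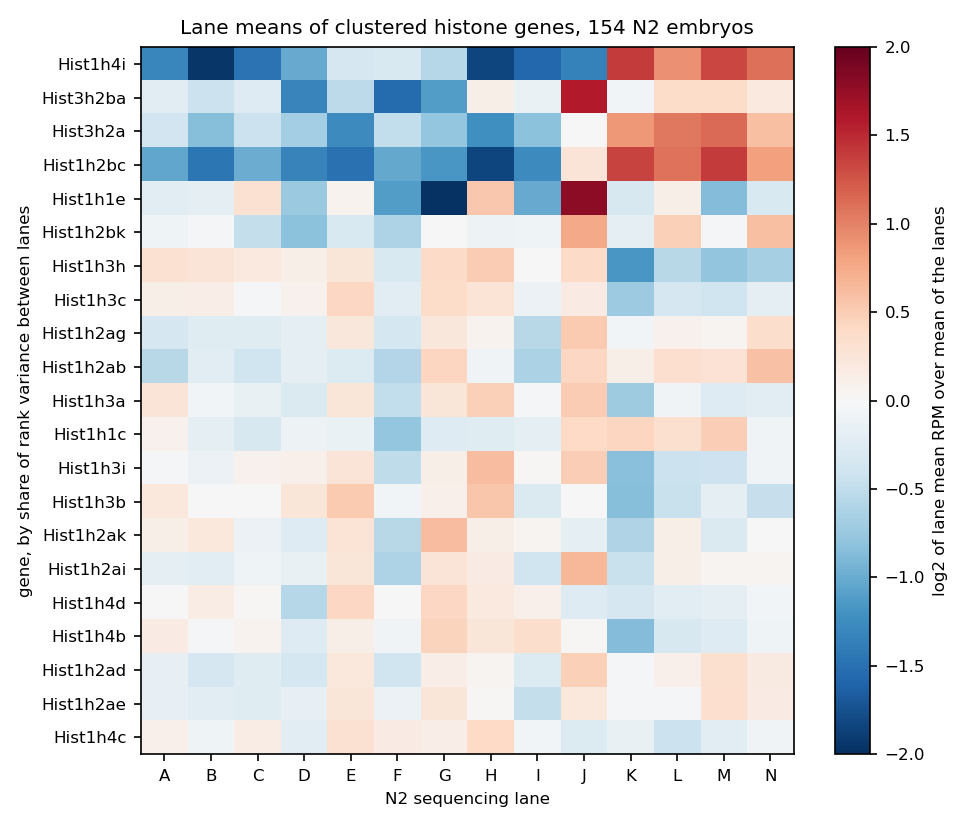
Heat map of lane means for the 21 genes (rows, ordered by the share of rank variance between lanes) over N2 lanes A to N (columns), as log2 of the lane mean over the mean of the lanes. Red in lanes K to N marks Hist1h4i, Hist3h2a and Hist1h2bc, and red in lane J marks Hist3h2ba and Hist1h1e.

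The mother's genotype, B6 or F1, was not called for any of the 21 genes (Mann-Whitney test, Bonferroni-adjusted p under 0.01), where 5.03% of 9733 autosomal genes were called, 4.28% higher and 0.750% lower with F1 mothers. At an unadjusted p under 0.05 the count was 3, against 40.2% of all genes, edgeR called 2, against 25.8%, and DESeq2 3, against 27.9%. Hist3h2ba had 217.3 ± 156.7 RPM in embryos of B6 mothers (n = 89) and 153.7 ± 73.3 RPM in those of F1 mothers (n = 65), with ranges of 24.5 to 919.1 and 38.4 to 309.1 RPM that overlapped, and edgeR called it lower by 0.55 on the log2 scale (adjusted p = 0.00026). The log2 ratio of F1 to B6 mothers, -0.50 over all embryos, was -0.13 without lane J, -0.13 on flowcell 1 and -0.12 on flowcell 2. Lane J held embryos of B6 mothers alone, and 13 of the 14 lanes held embryos of 1 kind of mother, so that mother and lane cannot be told apart. On flowcell 2 alone Hist3h2a was called higher with F1 mothers (0.99, Bonferroni-adjusted p = 0.0023), where 0.247% of all genes were, and on flowcell 1 its value was -0.18. With lane as a random block in limma voom 0 of the 21 and 1 of 9733 genes were called.

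Genotype at the gene's own locus went with the level of several genes. Every N2 embryo was Cast/B6 or B6/B6 there, and the 54 genes on chromosome 13 had the same genotype in all but 1 embryo, so that they share 1 contrast of 72 or 73 against 81 or 82 embryos and are not independent of each other. After subtraction of lane means of log2(RPM + 0.5), 9 of the 21 genes differed (rank-sum test, Benjamini-Hochberg adjusted p under 0.05), against 27.2% of 9733 autosomal genes, with 4 higher and 5 lower in Cast/B6, where 14.1% and 13.1% of all genes were.

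The 5 that were lower included the H4 genes Hist1h4b, Hist1h4c and Hist1h4i. Hist1h4b had a median of 14.4 RPM in 73 Cast/B6 embryos (3.98 to 34.25) and 23.8 RPM in 81 B6/B6 embryos (2.52 to 54.96), and the ranges overlapped. The difference was -0.74 on the lane-subtracted log2 scale (adjusted p = 3.3e-12), and Cast/B6 was lower in 13 of the 13 lanes with at least 2 embryos of each genotype. The H2A gene Hist1h2ae had a median of 19.5 RPM (10.96 to 44.7) against 29.5 RPM (14.6 to 53.2), a difference of -0.61 (adjusted p = 1.3e-15), again lower in 13 of 13 lanes. Hist1h4c had 7.85 RPM (2.39 to 19.6) against 11.8 RPM (4.23 to 19.6), a difference of -0.56 (adjusted p = 2.2e-10) in the same direction in all 13 lanes.

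Hist1h4i and Hist1h2bc, the H4 and H2B genes with the large lane differences, were lower by 0.44 and 0.40 (adjusted p = 2.1e-06 and 0.00013), in 11 and 10 of 13 lanes. Their raw medians, 10.3 against 22.2 RPM and 8.58 against 14.2 RPM, differed by more than that. Of the lanes where both genes were high, Cast/B6 embryos made up 3 of 12 in K and 1 of 9 in M. They made up 6 of 12 in lane L and 5 of 12 in lane N. The part of lane in the raw medians was not tested.

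The 4 that were higher in Cast/B6 were the H2A gene Hist1h2ak (0.39), the H1 gene Hist1h1c (0.35), Hist3h2ba on chromosome 11 (0.31) and the H3 gene Hist1h3h (0.29). Hist3h2ba had a median of 188.2 RPM (38.4 to 919.1) in 72 Cast/B6 and 142.9 RPM (24.5 to 630.3) in 82 B6/B6 embryos (adjusted p = 1.4e-06) and was higher in 12 of 14 lanes. Hist1h3h was higher in 12 of 13 lanes, with 29.6 RPM (9.09 to 87.9) against 21.9 RPM (4.41 to 48.1). With F1 mothers alone 6 of the 21 were called, 1 higher and 5 lower, and Hist1h3h (adjusted p = 0.052), Hist1h2ak (0.17) and Hist1h1c (0.21) no longer passed. With Bonferroni adjustment these 3 and Hist1h2bc did not pass. The share of all genes called is not given for these settings, so their counts say nothing particular to histone genes. Hist3h2ba did not pass without subtraction of lane means (0.19, adjusted p = 0.20). Hist1h3c (0.00), Hist1h4d (0.02) and Hist1h2ad (0.02) had differences near 0. With the minimum at 1 RPM, 12 of 44 genes were called, against 24.9% of 12722 genes. One of the 3 added, named after its values were seen, was Hist4h4 on chromosome 6, an H4 gene with 6.35 ± 2.89 RPM in 73 Cast/B6 and 2.56 ± 1.71 RPM in 81 B6/B6 embryos (adjusted p = 1.5e-14).

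**Figure D4:**
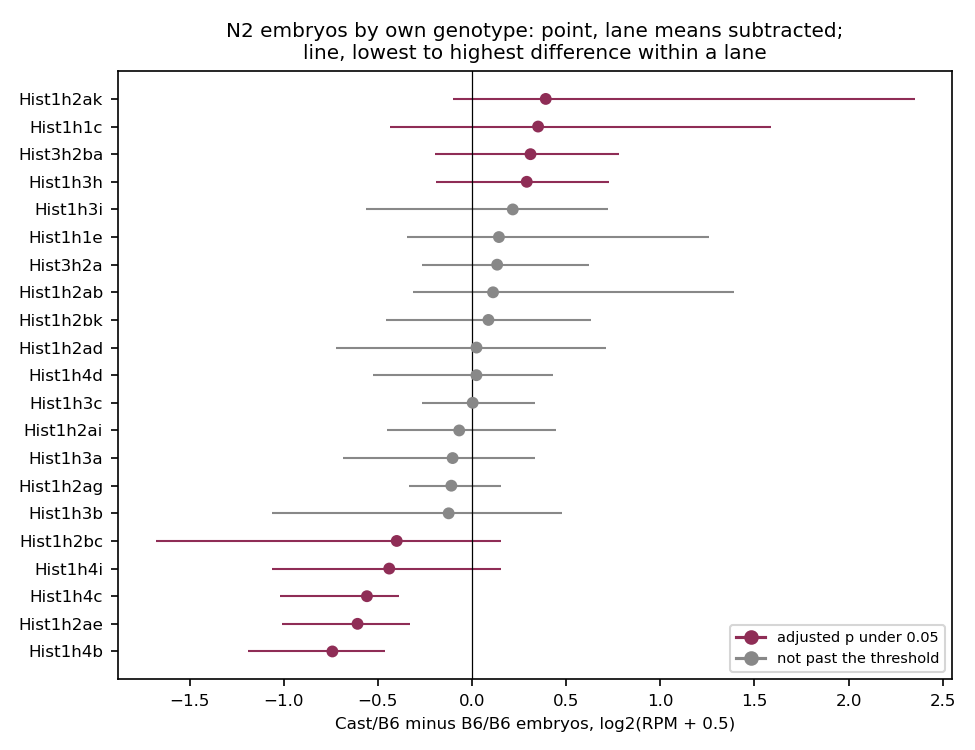
Difference between Cast/B6 and B6/B6 N2 embryos in log2(RPM + 0.5) for the 21 genes, lane means subtracted (points), with lines from the lowest to the highest difference within a lane. The lines of Hist1h4b, Hist1h2ae and Hist1h4c stay wholly below 0.

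Allele shares could be had for few of these genes. The tables count votes, estimated counts of reads that carry the B6 or the Cast base of a known difference, and 58 of the 68 genes had no vote. Of the 21 genes of at least 5 RPM, 17 had none, against 7.65% of the 10007 genes at that level. Votes sufficed for a test in 4 genes, and none was called as allele-specific, where 18.9% of 9084 genes were, 9.70% and 9.17% in the 2 directions (paired test of the methods over F1 and Cast/B6 N2 embryos, Bonferroni-adjusted p under 0.01 and a pooled B6 share outside 0.45 to 0.55). At an unadjusted p under 0.05 the count was 3, against 57.7% of all genes, and with Benjamini-Hochberg adjustment 1. None of the 4 tested genes was among those called by own genotype, so that the allele test does not bear on those.

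Hist3h2a was covered best, with 4771 votes in F1. The B6 share was 0.470 ± 0.048 (SD, n = 8) over B6xCast embryos and 0.485 ± 0.042 (SD, n = 8) over CastxB6 embryos, so the crosses overlapped, and it was 0.457 pooled over Cast/B6 N2 embryos. The linker histone gene Hist1h1e had 598 F1 votes and a pooled B6 share of 0.455, and the H2B gene Hist1h2bl 392 votes and a share of 0.434. Hist1h2bm, an H2B gene of low level, had 177 F1 votes and B6 shares of 0.170 in B6xCast and 0.210 in CastxB6, on the Cast side in both, and 0.324 in Cast/B6 N2 embryos, 0.247 with B6 mothers and 0.464 with F1 mothers, the latter over 34.5 votes. It was the 1 gene called with Benjamini-Hochberg adjustment (adjusted p = 0.0023). As a check of the votes, B6/B6 N2 embryos gave 0.512% Cast votes for Hist3h2a and 0.519% for Hist1h1e.

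Lastly, the genes were compared with each other over the 154 N2 embryos, which share lanes and normalization. After subtraction of lane means, the 210 pairs of the 21 genes had a median Spearman's rho of 0.20, against 0.05 over all pairs of 10007 genes, and 34.8% of the pairs were above 0.3, against 13.1%. Without the subtraction the medians were 0.20 and 0.06 and the shares 36.2% and 29.9%. The closest pairs were Hist1h2ai with Hist1h2ag (0.71), Hist1h2ae with Hist1h4b (0.71) and Hist1h3h with Hist1h3c (0.69). With the means of each genotype within each lane subtracted as well, Hist1h2ae and Hist1h4b came to 0.53 and Hist1h2ai and Hist1h2ag to 0.73.

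A group of 4 genes went least with the rest. The median rho with the other 20 was 0.02 for Hist1h1c, -0.03 for Hist1h2bc, -0.05 for Hist1h4i and -0.10 for Hist3h2a, and none of their pairs reached 0.3, while for Hist1h2ai the median was 0.41 and 14 pairs did. Between these 4 and the other 17 the 68 pairs had a median of -0.05, and within the 17 the median was 0.315. They are the same 4 genes whose CastxB6 litters differed least, from -0.23 to 0.36 on the log2 scale, all with N2 to F1 ratios of 1.05 to 2.12. They were picked out by these values, so that the medians describe them and test nothing.

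**Figure D5:**
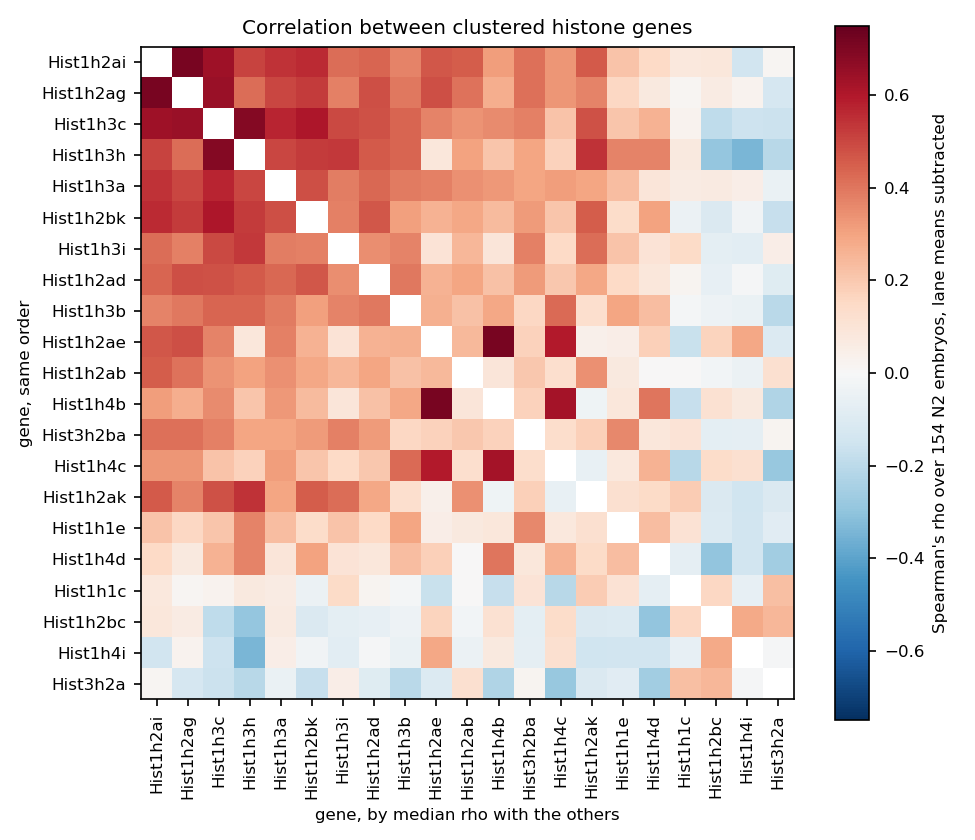
Spearman's rho between the 21 genes over 154 N2 embryos with lane means subtracted, genes ordered by their median rho with the others. A block of positive values covers the upper left, and the last 4 genes, Hist1h1c, Hist1h2bc, Hist1h4i and Hist3h2a, have values near or below 0 with it.

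The summed level of the 21 genes went with few other measures once lanes were set aside. Within lanes its rho was -0.04 with the number of reads, 0.09 with somite number, 0.23 with RNAs that mostly lack a tail, -0.16 with replication-independent histone genes and -0.30 with cycling-cell markers. The 5 other genes whose lane-subtracted levels were most like the sum were Arf5 (rho = 0.66, 398.0 RPM), Prkag1 (0.64), Gss (0.64), Rdm1 (0.63) and Nenf (0.63), over 154 embryos. Without the subtraction their rhos were 0.71 for Arf5 and -0.03 to 0.28 for the others. Hist3h2ba, the gene with the highest mean and SD, weighs most in the summed level, and its part in these rhos was not tested.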

How the data were processed

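3SEQ libraries were made from poly(A)-selected RNA of single whole embryos. The authors trimmed poly(A) stretches, cut F1 HiSeq reads to the GAIIx length but not N2 reads, and aligned with Bowtie2 (version not given in the sources used here) to mm9 and to a Cast version of it with spliced RefSeq transcripts. They discarded reads with a near second-best hit and deposited raw counts of reads on exons per gene. They also deposited votes for either allele, which are estimated counts because a read splits its vote over its SNPs, and a genotype code per gene and N2 embryo smoothed by a hidden Markov model. The 2 runs of an F1 embryo form 1 column, so embryos were the replicates.

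RPM here is reads per 1000000 counted on genes, whereas the authors divided by all sequenced reads. Genes averaging 5 RPM or more were tested across the whole table, in tests taken from the methods where stated: Spearman's correlation with somite number, the Mann-Whitney test for the mother, a paired test of votes, and a rank-sum test for genotype with lane means of log2(RPM + 0.5) subtracted in place of the PEER adjustment. Lanes, F1 crosses and litters were tested with edgeR quasi-likelihood fits, TMM scaling and Benjamini-Hochberg adjustment. R 4.3.3, edgeR 4.0.16, limma 3.58.1, DESeq2 1.42.0, Python 3.11.15, scipy 1.17.1 and pandas 2.3.3 were used. The tests of somite number, mother, own genotype, alleles, lane and the CastxB6 litters were first tried on simulated data, the other fits were not. The mother and allele tests were tried there with Benjamini-Hochberg and not with Bonferroni adjustment. Alternatives were other scalings, minimum levels, adjustments, tools and subsets. Those without lane J, with lane and a minimum of 1 RPM together, and without the younger CastxB6 litter were chosen after seeing the data.

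The histone genes and the other gene lists were chosen with earlier results of these data known. Every gene of at least 5 RPM in N2 was named, those of 1 to 5 RPM by counts and the 3 highest, genes with an allele test, and the 5 other genes most like the summed level. Hist2h4, Hist4h4, Hist1h2an, Hist1h4k, Hist1h2bb and the RNAs Rmrp, Rpph1 and Rnu11 fall outside this rule and were named after their values were seen. The ratio with a minimum on both generations was also added at that point. Sequences came from mm9 with GENCODE models, and the RefSeq models of the authors were not used here. Left out were 8 N2 columns without a group in the labels and 6 N2 embryos without genotypes. Median depth was 2297773 reads in N2 and 30107971 in F1, which sets the counting error of low genes.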

Additional observations from a re-analysis of the deposited data

Results flagged for a closer look

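In 75 checks of the highest and lowest F1 embryo of a group, 2 values lay far from the others, and chance gives about 1 in 20. Hist1h2ae had 13.35 RPM in 1 embryo of the older CastxB6 litter, where the nearest of the other 3 had 11.52 RPM. Hist1h2bc had 14.23 RPM in 1 of the 8 CastxB6 embryos, also of the older litter, where the nearest had 10.08 RPM.

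The difference between older and younger litters itself differed between the F1 crosses for 10 genes by the edgeR test of that difference. As B6xCast minus CastxB6 on the log2 scale it was -2.53 for Hist1h3h, -2.44 for Hist1h3c, -2.41 for Hist1h2ai, -2.37 for Hist1h2ag and -2.19 for Hist1h2ak. It was -2.13 for Hist1h2bk, -2.10 for Hist3h2ba, -1.59 for Hist1h4b, -1.53 for Hist1h2ae and -1.25 for Hist1h4d. Stage, run and cross cannot be told apart in these litters.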

How the results depend on the processing

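Counts of clustered histone genes called with somite number went from 2 to 1 with lane regressed out or as an edgeR term, to 8 with B6 mothers alone, 5 with F1 mothers alone, 0 on flowcell 1, 4 on flowcell 2 and 0 with litter means, and Hist1h4i changed sign with F1 mothers alone (rho = 0.023, adjusted p = 0.911). For the mother, 0 became 3 with Benjamini-Hochberg adjustment, 1 on flowcell 2, 2 with edgeR and 3 with DESeq2. For alleles, 0 became 1 with Benjamini-Hochberg adjustment, and for own genotype 9 became 5 with Bonferroni adjustment and 6 with F1 mothers alone. For lanes, 20 of 21 became 43 of 44 at 1 RPM and 52 of 60 with no minimum. For the reciprocal cross, 0 became 1 with the stage-matched litters, at 1 RPM and with no minimum, and 4 without the younger CastxB6 litter. The litter counts became 8 and 7 in B6xCast and 29 and 32 in CastxB6 at 1 RPM and with no minimum, in each case with more genes tested. At 1 RPM 16.0% and 32.4% of all genes were called. With no minimum Hist1h2bb, a gene of low level, was called lower in the older CastxB6 litter (-1.89 on the log2 scale, edgeR adjusted p = 0.0052). Where no share of all genes is given for a setting, its count says nothing particular to histone genes. Leaving out 1 embryo gave 0 to 3 calls in B6xCast and 10 to 11 in CastxB6. Apart from changes in the number of genes tested, the cause of these changes was not tested. Of single-gene values in the CastxB6 litters, 126 kept their call and 6, all of Hist3h2a, lost it, and for own genotype 64 kept it and 8 lost it. No paired analysis was possible because replicate numbers were given in accession order and pair no samples, but littermates were compared by subtracting litter means in the own-genotype test, which called 10.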
